A study of Mus musculus with 8 samples.

Results

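The genes described here encode the proton pump, the degrading enzymes and the membrane proteins of the lysosome. They were chosen by name: 49 gene symbols, looked up among the 24421 gene symbols of the count files, where all 49 were present. The list holds 17 genes of the vacuolar ATPase, 22 hydrolases, 4 luminal cofactors and 6 membrane proteins. A filter on low counts kept 48 of the 49 for testing, out of 11519 genes tested in all, and the exception was Atp6v0c.

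Expression was measured by RNA sequencing in bone marrow-derived macrophages (BMDM), macrophages grown in culture from mouse bone marrow. The 8 libraries all received interleukin 4 (IL-4) for 24 h and all carry the loxP-flanked Opa1 alleles (OPA1f/f). The 4 libraries of the group CKO (replicates 2, 6, 7 and 8) have the genotype OPA1f/f; Lyz2-Cre, and the 4 of the group FLOX (replicates 3, 4, 6 and 7) have the genotype OPA1f/f. Lyz2-Cre expresses the recombinase from the lysozyme 2 locus, which is active in macrophages, other monocyte-derived cells and neutrophils, and Opa1 encodes a GTPase of the inner mitochondrial membrane. Only CKO carries the driver, so effects of the driver, of the deletion of Opa1 and of a batch that the labels do not name cannot be told apart. The labels give no age or sex of the mice and do not tie libraries to separate animals, so the p-values cover the spread among these libraries alone, which may be technical.

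The vacuolar ATPase is a rotary pump that spends ATP to move protons into the lysosome. Its cytosolic V1 part binds and splits ATP, and its V0 part sits in the membrane and passes the protons. The acid lumen suits the hydrolases, which take apart glycans, glycosaminoglycans, lipids and proteins, some of them with the help of small cofactor proteins, while membrane proteins shield the lysosome and carry products, cholesterol and ions across its wall. In macrophages the pathway digests engulfed cells and microbes. Many of its genes carry a shared promoter element, the CLEAR element, to which TFEB and related factors of the MiT/TFE family bind.

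Libraries held from 11764855 to 18939948 read pairs assigned to genes, and every tested member had at least 446 counts in every library. Opa1 stood at 94.6 to 105 CPM (read pairs per gene, scaled to library size) in CKO and 104 to 130.4 in FLOX, which did not pass the test (log2 fold change -0.19, edgeR adjusted p = 0.0544). These are totals of the whole gene, so they do not check the deleted exons. The driver gene Lyz2 was at 1809 to 2387 CPM in CKO, against 6906 to 8294 CPM in FLOX. All 8 macrophage markers were expressed, with Adgre1, which encodes F4/80, at 1143 to 1209 CPM in CKO, against 1145 to 1191 CPM in FLOX. The extraction protocol of the labels speaks of islets, but the hormone genes Ins1, Ins2, Gcg, Sst, Ppy and Iapp had 0 counts in all 8 libraries.

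Most transcripts of the pump, the lipid and glycan hydrolases, the cofactors and the membrane proteins were lower in CKO than in FLOX, while 4 of 7 enzymes of glycosaminoglycan degradation did not pass the test. Of the 48 tested members 38 fell in the quasi-likelihood test of edgeR, called at an adjusted p of 0.05, where 21.6% of all tested genes fell. Of the members 1 rose (Arsb), where 23.8% of all tested genes rose, and 9 did not pass the test, which 45.4% of all tested genes passed in either direction. The median log2 fold change of the members was -0.34, against -0.02 over all tested genes. A negative value was found for 47 of the 48. The 4 CKO libraries lay below all 4 FLOX libraries for 38 members, where that held for 20% of tested genes, and above them for 1, where that held for 22.7%. In 36 members the fall came with separate ranges; Sgsh and Glb1 fell although their ranges overlapped, and Gusb and Lipa had separate ranges but did not pass the test. Most differences were modest. Only Atp6v0d2, Psap, Galc, Gaa and Atp6v0a1 fell by 1.5-fold or more, 5 of 48 members, where 4.90% of all tested genes did. In bulk RNA fewer cells that express a gene and less of its RNA per cell cannot be told apart.

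**Figure D1:**
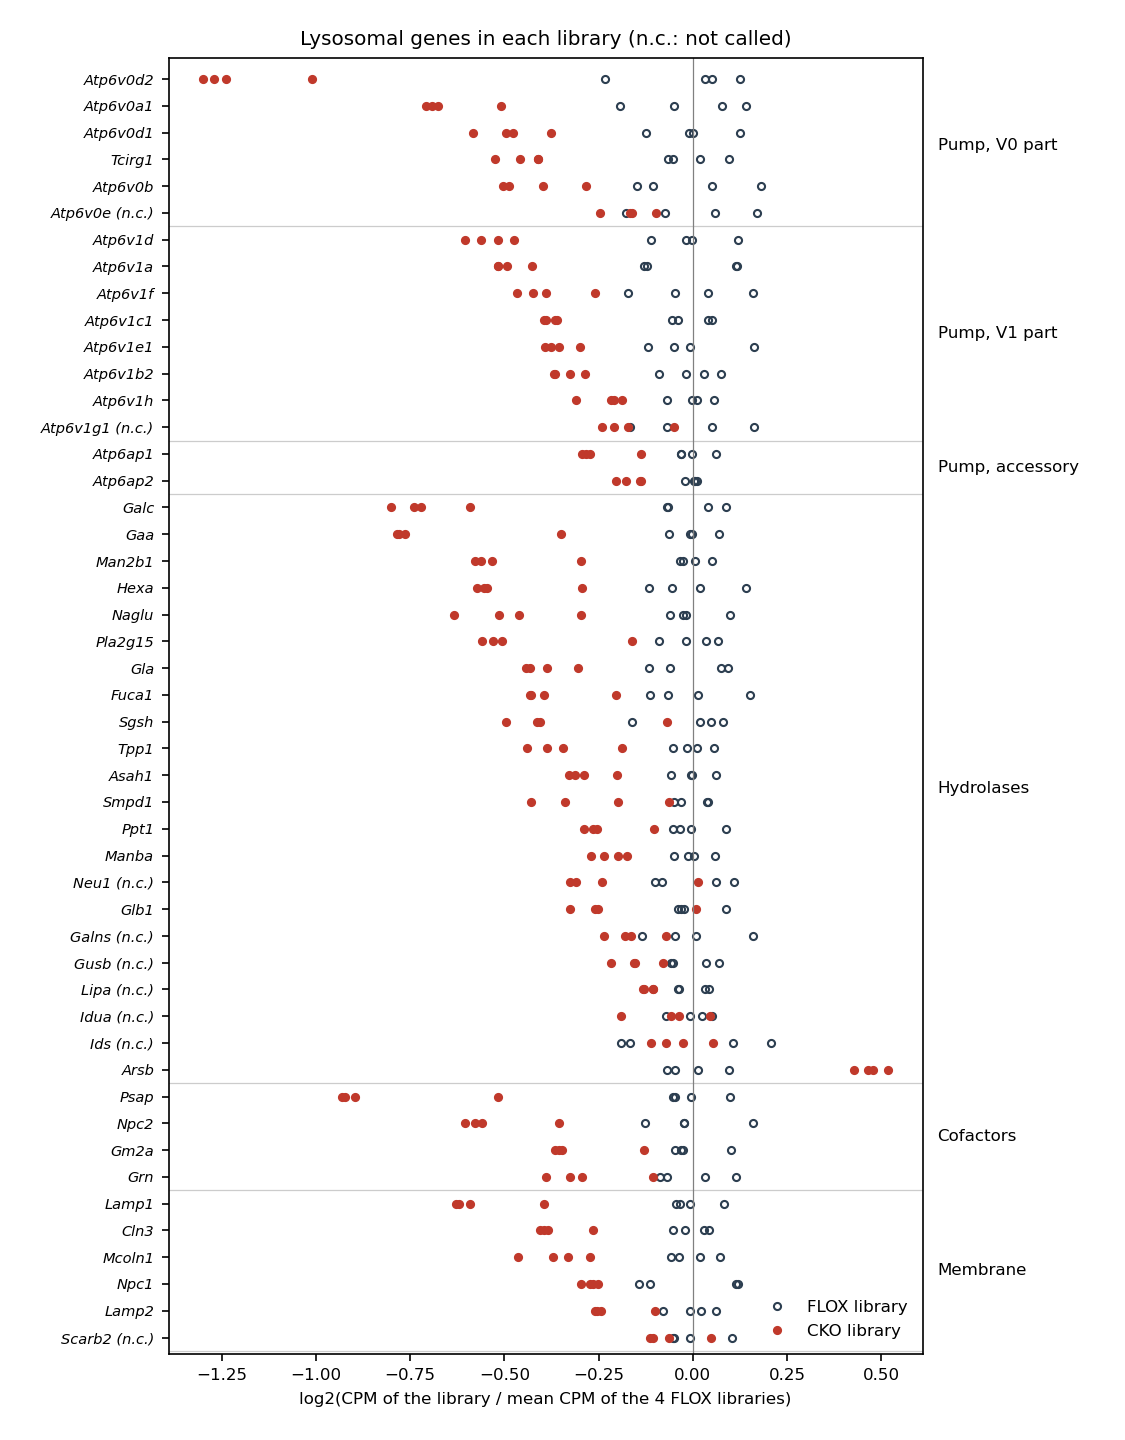
Level of each tested member in each library as log2 of its CPM over the mean of the 4 FLOX libraries (open circles FLOX, filled circles CKO; n.c., not called by edgeR at an adjusted p of 0.05). Within each class the members are ordered by fold change; Atp6v0d2 lies farthest left and Arsb is the one member to the right of all FLOX libraries.

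Summed over its members, the vacuolar ATPase stood at 5916 ± 182 CPM in CKO, against 8217 ± 346 CPM in FLOX (SD, n = 4 each), which is 72.0% of FLOX. The hydrolases together stood at 6615 ± 361 and 8121 ± 159.9 CPM (81.5%), and the membrane proteins at 4448 ± 279 and 6053 ± 164 CPM (73.5%). The cofactors came to 16288 ± 2161 and 26661 ± 1364 CPM (61.1%). That last sum is mostly Psap, which made up 44.0% to 45.1% of the CPM of all 49 members in FLOX libraries and 35.9% to 40.3% in CKO libraries. Without Psap the other 48 members summed to 20825 ± 1132 CPM in CKO, against 27300 ± 791 CPM in FLOX (76.3%). For comparison, the sum over all tested genes in CKO was 93.2% of that in FLOX on this scale, which uses TMM-scaled library sizes. Abundant genes weigh most in that sum. The median log2 fold change over all tested genes was -0.02. Psap, Lamp1 and Grn are themselves among the 20 most abundant genes, which took 9.88% to 11.1% of the counts in CKO and 12.6% to 13.7% in FLOX.

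**Figure D2:**
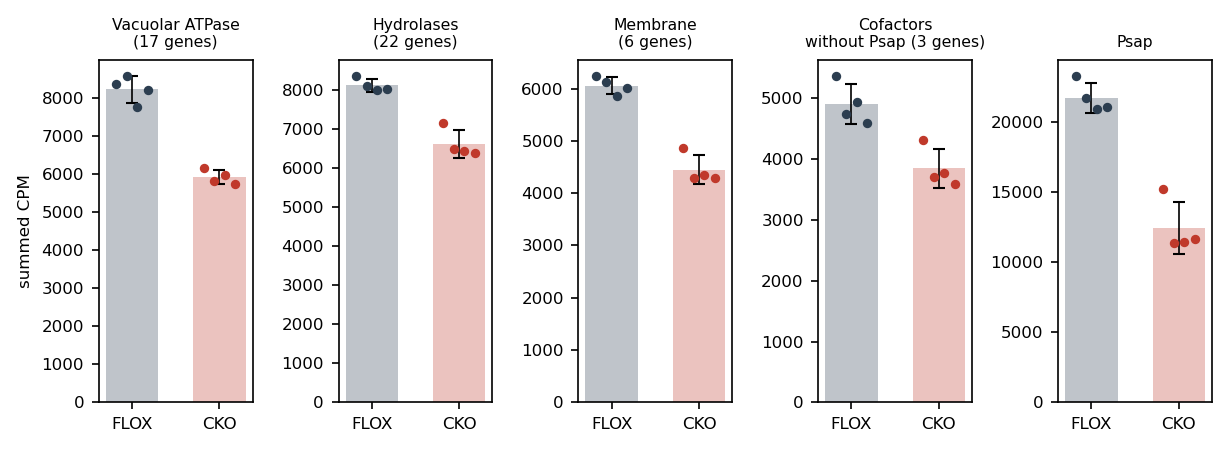
Summed CPM of the members of each class in each library (points), with the group mean (bar) and SD (error bar) over 4 libraries; Psap is drawn apart from the other 3 cofactors. In all 5 panels the 4 CKO libraries lie below the 4 FLOX libraries.

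The promoters of the members were read from RefSeq (GRCm38.p6, the same assembly as mm10) as windows from 250 bases before to 50 bases after the transcription start. Windows were found for 41 of the 49 members; Atp6v0d2, Atp6v1b2, Atp6v1c1, Atp6v1g1, Atp6v1h, Galns, Asah1 and Npc1 had no entry. The E-box letters CACGTG, the core of the CLEAR element, were searched on both strands, together with the longer form TCACGTGA and with a form of 10 letters that adds a G before and a C after it. All 3 forms read the same on both strands, so a longer match is also counted as a shorter one. CACGTG was found in 12 of the 41 members (29.3%), against 8.09% of all genes in the promoter table and 12.1% of its genes that were tested here. TCACGTGA was in 6 of 41 (14.6%), against 1.12% and 2.25%, and the form of 10 letters in 1 of 41 (Cln3; 2.44%), against 0.370% and 0.888%. The matches below are shown because they come from pump, hydrolase and membrane members alike, and because 1 of the genes, Atp6v0e, did not pass the test although it holds one, just after its start. No cofactor held CACGTG in its window. Each line gives 28 bases, 5′ to 3′ on the strand of the gene, with the longest matching form in capitals.
Atp6v0d1 (chr8:105566051-105566078, minus strand, fell): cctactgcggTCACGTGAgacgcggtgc
Atp6v1a (chr16:44139374-44139401, minus strand, fell): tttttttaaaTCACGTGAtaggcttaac
Atp6v0e (chr17:26676388-26676415, plus strand, not past the threshold): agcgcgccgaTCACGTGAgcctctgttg
Gaa (chr11:119267812-119267839, plus strand, fell): ttctgtgcgatCACGTGtttgactctga
Naglu (chr11:101070010-101070037, plus strand, fell): aaccttcaggtCACGTGgcccgaggtcg
Gla (chrX:134601183-134601210, minus strand, fell): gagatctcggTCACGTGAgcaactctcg
Cln3 (chr7:126583341-126583368, minus strand, fell): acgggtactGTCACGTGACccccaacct

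The remaining genes with CACGTG were Atp6v0b, Glb1, Sgsh, Lamp1 and Mcoln1. Lamp1, the most abundant membrane member, holds 4 copies, the farthest of them 61 bases before the start, which is why its window is shown at greater length. The 250 bases before the start of Lamp1 (chr8:13158911-13159160, plus strand), with the 4 copies in capitals, read as follows.
Lamp1: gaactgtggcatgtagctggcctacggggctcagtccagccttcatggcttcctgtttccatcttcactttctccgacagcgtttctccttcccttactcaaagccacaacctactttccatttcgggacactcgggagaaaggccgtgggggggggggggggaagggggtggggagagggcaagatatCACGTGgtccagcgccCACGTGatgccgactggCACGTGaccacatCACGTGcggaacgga
Mcoln1, whose product releases calcium from the lysosome, holds 2 copies in its 250 bases (chr8:3500269-3500518, plus strand), the second of them in the longer form.
Mcoln1: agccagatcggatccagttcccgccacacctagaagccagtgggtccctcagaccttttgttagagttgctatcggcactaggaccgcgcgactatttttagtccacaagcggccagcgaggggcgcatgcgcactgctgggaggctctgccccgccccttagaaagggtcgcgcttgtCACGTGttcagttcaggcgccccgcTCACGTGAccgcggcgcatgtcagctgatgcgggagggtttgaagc
Of the 12 members with CACGTG 11 fell, with a median log2 fold change of -0.40, and of the 28 tested members with a window but without these letters 21 fell, with a median of -0.29. The longer form showed less of a gap. With TCACGTGA 5 of 6 members fell (median -0.38), and without it 27 of 34 fell (median -0.34). For the form of 10 letters, held by Cln3 alone, the values were -0.362 with it and -0.356 without it. How many of all tested genes with CACGTG fell was not computed. The motif match is a description of the sequence and was not tested against expression.

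In the V0 part of the pump, 5 of the 6 tested members fell. The largest fall was that of Atp6v0d2 (ENSMUSG00000028238, chromosome 4, 19876841 to 19922605, mm10), which encodes the d2 isoform of the subunit that links the membrane ring to the central stalk. It stood at 449.7, 368, 384 and 375 CPM in CKO replicates 2, 6, 7 and 8, and at 938, 988, 771 and 927 CPM in FLOX replicates 3, 4, 6 and 7. The groups were far apart, with CKO replicate 2 the highest of its group and FLOX replicate 6 the lowest of the other. CKO was at 43.5% of FLOX (95% interval 37.5% to 50.6%; log2 fold change -1.20 with an SE of 0.09, adjusted p = 9.49e-07 by edgeR). Atp6v0d1 encodes the widely expressed d1 isoform of the same subunit and was at 236, 220.2, 218 and 204 CPM in CKO, against 334, 304, 306 and 281 CPM in FLOX (libraries in the same order here and hereafter). These ranges were also separate, with a smaller fall, to 71.6% of FLOX (log2 fold change -0.48 with an SE of 0.07, adjusted p = 0.000103 by edgeR).

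The a subunit, which forms the path of the protons beside the membrane ring, is likewise made from several genes. Atp6v0a1 (ENSMUSG00000019302, chromosome 11, 101009452 to 101063719), the a1 isoform, was at 666, 658, 756 and 673 CPM in CKO, against 1039, 1187, 939.8 and 1135 CPM in FLOX. No CKO library reached the lowest FLOX library, although CKO replicate 7 stood above the other 3 of its group. The level fell to 64.0% of FLOX (95% interval 55.9% to 73.4%; log2 fold change -0.64 with an SE of 0.08, adjusted p = 4.24e-05 by edgeR). Tcirg1, the a3 isoform known from osteoclasts and secretory lysosomes, was at 423, 409.5, 423 and 391 CPM in CKO, against 601, 569.6, 542 and 537 CPM in FLOX. Within each group its values were close together, and it fell to 73.2% of FLOX (log2 fold change -0.45 with an SE of 0.06, adjusted p = 6.57e-05 by edgeR). The a2 isoform gene Atp6v0a2, which is not among the 49, was at 63.1 ± 2.46 CPM in CKO, against 65.5 ± 3.95 CPM in FLOX (SD, n = 4 each) and did not pass the test (log2 fold change -0.05, edgeR adjusted p = 0.511). The a4 isoform gene Atp6v0a4 had 0 counts in all libraries.

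Since the isoforms of a subunit take the same place in the pump, their ratio was compared within each library, where library scaling drops out. The log2 ratio of Atp6v0d2 to Atp6v0d1 counts was 0.93, 0.74, 0.82 and 0.88 in CKO and 1.49, 1.70, 1.33 and 1.72 in FLOX. All 4 CKO libraries were below all 4 FLOX libraries. The difference was -0.72, from a mean of 1.56 ± 0.18 in FLOX to 0.84 ± 0.08 in CKO (SD, n = 4 each; exact two-sided permutation p = 0.0286, the smallest that 4 against 4 libraries can give, and 0.0571 after Benjamini-Hochberg adjustment over the 2 ratios tested). The adjusted value does not pass 0.05, and no arrangement of 8 libraries could make it smaller unless the other ratio also reached the smallest p. Divided by merged exon length, the level of Atp6v0d2 was 1.95 times that of Atp6v0d1 in FLOX and 1.19 times in CKO. Merged exons are those of all annotated transcripts of a gene. Their length can exceed that of the RNA present, so levels per kilobase compare genes only roughly. The log2 ratio of Tcirg1 to Atp6v0a1 was -0.66, -0.68, -0.84 and -0.78 in CKO and -0.79, -1.06, -0.79 and -1.08 in FLOX, with overlapping ranges (difference 0.19, exact two-sided permutation p = 0.114, adjusted 0.114). FLOX replicates 4 and 7 were the low libraries there. Per kilobase the level of Tcirg1 was 0.745 times that of Atp6v0a1 in FLOX and 0.852 times in CKO.

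**Figure D3:**
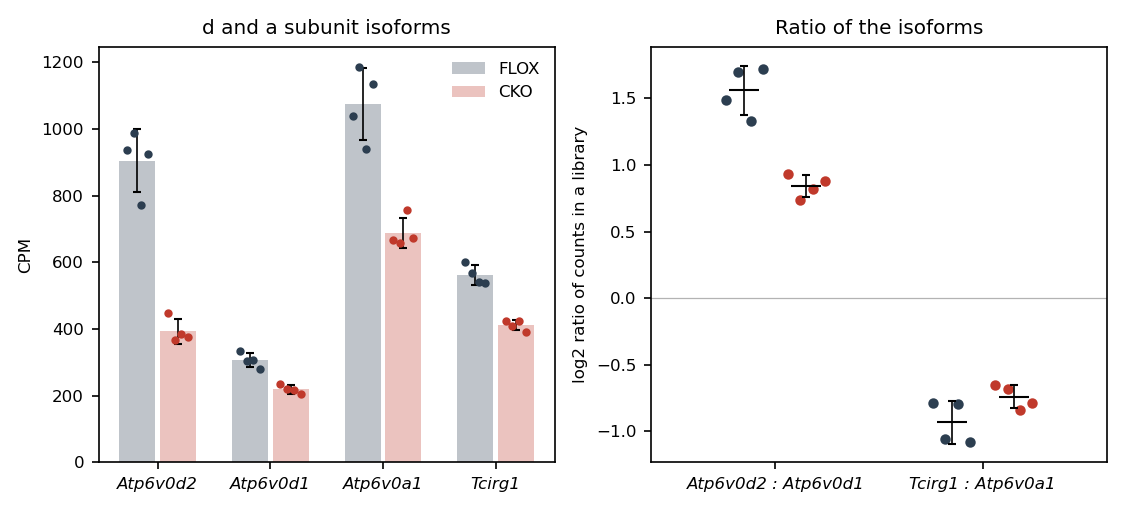
CPM of the isoform genes of the d and a subunits in each library (left; bars are group means, error bars SD over 4 libraries) and log2 ratio of the counts of each isoform pair within each library (right; long tick mean, error bar SD). The 4 CKO libraries lie below the 4 FLOX libraries in the ratio of Atp6v0d2 to Atp6v0d1 and overlap them in the ratio of Tcirg1 to Atp6v0a1.

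Of the other V0 members, Atp6v0b, which encodes a proteolipid of the membrane ring, fell to 75.0% of FLOX (log2 fold change -0.42, edgeR adjusted p = 0.00111). Atp6v0e, a small membrane subunit, was at 145 ± 6.08 CPM in CKO, against 163 ± 17.2 CPM in FLOX with overlapping ranges, and did not pass the test (edgeR adjusted p = 0.0874). Atp6v0c encodes the main proteolipid of the same ring, yet was counted 0, 0, 1 and 0 times in CKO and 3, 2, 2 and 0 times in FLOX. Every library is at or under the 3 counts that a count of 0 allows, and no fold was computed. The annotation holds processed pseudogenes of this gene on chromosomes 6 and 7; the one on chromosome 6 (Atp6v0c-ps2) had 0 counts, and the other is not in the count files. Read pairs with more than 1 alignment, 5.03% to 6.01% of the pairs of a library, were not assigned to any gene, and their part in the count of Atp6v0c was not tested.

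In the V1 part, which holds the ATP-splitting head, 7 of 8 members fell. Atp6v1d, a subunit of the turning central stalk, was at 148, 139, 144 and 135 CPM in CKO, against 223, 205, 203 and 190.5 CPM in FLOX. CKO lay below FLOX throughout, at 68.8% of its level (log2 fold change -0.54 with an SE of 0.06, adjusted p = 2.16e-05 by edgeR). Atp6v1a, the catalytic subunit, was at 1131, 1079, 1062 and 1063 CPM in CKO, against 1389, 1649, 1397 and 1644 CPM in FLOX. Its CKO libraries were within a narrow range, while FLOX replicates 4 and 7 stood above FLOX replicates 3 and 6. It fell to 71.3% of FLOX (log2 fold change -0.49 with an SE of 0.07, adjusted p = 0.000174 by edgeR). Atp6v1b2, the nucleotide-binding partner of the catalytic subunit, fell by 0.34 on the log2 scale. The stalk and regulatory subunits Atp6v1c1 (-0.38), Atp6v1e1 (-0.36), Atp6v1f (-0.38) and Atp6v1h (-0.23) fell as well (log2 fold changes). The only V1 member that did not pass was Atp6v1g1, a peripheral stalk subunit, at 226 ± 13.4 CPM in CKO, against 254 ± 25.1 CPM in FLOX (log2 fold change -0.17, edgeR adjusted p = 0.0916). It and Atp6v0e passed when FLOX replicate 7 was left out (edgeR adjusted p = 0.0260 and 0.0201), as all 16 tested pump genes then did. In that fit 21.4% of all tested genes were lower. Without FLOX replicate 3 the Atp6v1g1 log2 fold change was -0.11 and the Atp6v0e log2 fold change -0.11 (edgeR adjusted p = 0.217 and 0.212). Per kilobase of merged exons, the level of the V1 members in FLOX ran from 251 CPM for Atp6v1a, 224 for Atp6v1g1 and 197 for Atp6v1b2 down to 44.7 for Atp6v1d and 18.3 for Atp6v1h. In CKO Atp6v1g1 led with 199 CPM per kilobase, before Atp6v1a with 179. In FLOX the levels of Atp6v1a and Atp6v1g1 do not differ beyond their spread (SD 24.2 and 22.1 CPM per kilobase). The order of the V1 members depends on merged exon length, which was 9746 bp for Atp6v1h, 4602 bp for Atp6v1d and 1135 bp for Atp6v1g1. The lengths of the transcripts present were not measured.

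The accessory subunits, membrane proteins that help to assemble and place the pump, both fell. Atp6ap1 was at 499, 454, 450.4 and 448 CPM in CKO, against 573, 536, 548 and 537 CPM in FLOX. Replicate 2 stood above the other CKO libraries but below all FLOX libraries (84.4% of FLOX, log2 fold change -0.25 with an SE of 0.06, adjusted p = 0.00450 by edgeR). Atp6ap2, also known as the prorenin receptor, was at 342, 334, 343 and 328 CPM in CKO, against 380.5, 378, 379 and 372 CPM in FLOX. Its FLOX libraries agreed within an SD of 3.72 CPM, and CKO was at 89.2% of FLOX (log2 fold change -0.16 with an SE of 0.05, adjusted p = 0.0189 by edgeR). That call was lost when CKO replicate 6, 7 or 8 was left out (edgeR adjusted p = 0.0828, 0.0616 and 0.0897).

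Among the hydrolases 15 of 22 fell and 1 rose, and they are described here by substrate. The enzymes that trim glycans fell in 4 of 5 cases. Gaa (ENSMUSG00000025579, chromosome 11, 119267887 to 119285454), the acid alpha-glucosidase that degrades glycogen in lysosomes, was at 110.4, 81.9, 82.8 and 81.7 CPM in CKO, against 148, 140.4, 135 and 140.1 CPM in FLOX. CKO replicate 2 stood well above the other 3 CKO libraries and still below all FLOX libraries. The fall was to 63.3% of FLOX (95% interval 54.1% to 74.1%; log2 fold change -0.66 with an SE of 0.09, adjusted p = 0.000103 by edgeR). Man2b1, the lysosomal alpha-mannosidase, was at 792, 651, 672 and 658 CPM in CKO, against 1007, 954, 949 and 976 CPM in FLOX. The same CKO library was the highest, and the groups did not overlap (71.3% of FLOX, log2 fold change -0.49 with an SE of 0.07, adjusted p = 0.000136 by edgeR). Manba, the beta-mannosidase, and Fuca1, the alpha-fucosidase, fell by 0.22 and 0.36 on the log2 scale. Neu1, the sialidase, was at 93.5 ± 10.7 CPM in CKO, against 108 ± 7.77 CPM in FLOX with overlapping ranges and did not pass (edgeR adjusted p = 0.0545). Without CKO replicate 2 Neu1 did pass (log2 fold change -0.27, edgeR adjusted p = 0.00804).

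Of the enzymes that degrade glycosaminoglycans, the sulfated sugar chains of proteoglycans, 2 of 7 fell, 1 rose and 4 did not pass, a share near that of all tested genes (21.6% lower, 23.8% higher). Naglu, which removes N-acetylglucosamine from heparan sulfate, was at 121, 108, 104 and 96.2 CPM in CKO, against 159.9, 147, 148 and 143 CPM in FLOX. Its groups were separate, with CKO at 72.1% of FLOX (log2 fold change -0.47 with an SE of 0.07, adjusted p = 0.000225 by edgeR). Sgsh, the heparan N-sulfatase, fell by 0.34 on the log2 scale (edgeR adjusted p = 0.0107), although CKO replicate 2 lay above FLOX replicate 3. Without CKO replicate 7 the call of Sgsh was lost (edgeR adjusted p = 0.0546). Arsb (ENSMUSG00000042082, chromosome 13, 93771630 to 93943016), the sulfatase of dermatan and chondroitin sulfate, went the other way. It was at 94.6, 98.2, 92.2 and 95.6 CPM in CKO, against 66.3, 65.4, 73.3 and 69.2 CPM in FLOX. Every CKO library exceeded every FLOX library, at 139% of the FLOX mean (95% interval 126% to 153%; log2 fold change 0.47 with an SE of 0.06, adjusted p = 3.73e-05 by edgeR). Gusb (beta-glucuronidase), Galns (a sulfatase of keratan sulfate), Ids (iduronate sulfatase) and Idua (iduronidase) had log2 fold changes of -0.15, -0.16, -0.04 and -0.06 and did not pass. Gusb did pass as lower in 6 of 19 alternative fits, among them DESeq2 (adjusted p = 0.0220) and voom (adjusted p = 0.0466). It also passed without CKO replicate 2 or FLOX replicate 7 (edgeR adjusted p = 0.0461 and 0.0436). Galns passed in 2 of 19 and Ids in 1. Summed CPM of this class stood at 1248 ± 48.5 in CKO and 1370.4 ± 33.1 in FLOX (SD, n = 4 each), or 91.1%. The CKO sums (1203.6 to 1316.6 CPM) all lay below the FLOX sums (1337.8 to 1409.4 CPM). The median log2 fold change of the class was -0.15, against -0.02 over all tested genes. Whether the class differs from the other hydrolases was not tested.

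Of the 8 enzymes that degrade sphingolipids and other lipids 7 fell. Galc (ENSMUSG00000021003, chromosome 12, 98202294 to 98259459), which splits galactosylceramide, was at 142, 123, 128 and 129.8 CPM in CKO, against 204, 228, 205 and 220.2 CPM in FLOX. The gap between the groups was wider than the spread within either. Galc was at 61.1% of FLOX (95% interval 54.8% to 68.0%; log2 fold change -0.71 with an SE of 0.06, adjusted p = 3.36e-06 by edgeR). Hexa, which acts in the degradation of GM2 ganglioside, was at 1038, 872, 866 and 856 CPM in CKO, against 1403, 1224, 1289 and 1174 CPM in FLOX. CKO replicate 2 again led its group without reaching FLOX (71.4% of FLOX, log2 fold change -0.49 with an SE of 0.08, adjusted p = 0.000351 by edgeR). The lysosomal phospholipase Pla2g15 (-0.43), the alpha-galactosidase Gla (-0.39), the ceramidase Asah1 (-0.28), the sphingomyelinase Smpd1 (-0.25) and the beta-galactosidase Glb1 (-0.20) also fell (log2 fold changes). The call of Glb1 (edgeR adjusted p = 0.0418) was lost without CKO replicate 6, 7 or 8 or FLOX replicate 3, 4 or 6, with adjusted p from 0.0556 to 0.165. Its exons also overlap Tmppe, a gene at 45.7 CPM on the same strand, so its count is uncertain. That of Smpd1 was lost without CKO replicate 7 or 8 (edgeR adjusted p = 0.0870 and 0.0907). Lipa, the acid lipase that frees cholesterol from its esters, was at 1599.8 ± 16.4 CPM in CKO, against 1737 ± 51.9 CPM in FLOX. Its groups did not overlap, but it did not pass in edgeR (adjusted p = 0.101); in DESeq2 it did, with an adjusted p of 0.0174.

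The protein-directed enzymes both fell. Tpp1, a tripeptidyl peptidase, was at 423, 380.2, 355 and 369 CPM in CKO, against 477, 486, 465 and 502 CPM in FLOX, with no overlap (79.2% of FLOX, log2 fold change -0.34 with an SE of 0.06, adjusted p = 0.00106 by edgeR). Ppt1, which removes palmitate from proteins, was at 139, 124, 122 and 125 CPM in CKO, against 158, 146, 148 and 144 CPM in FLOX. CKO replicate 2 came nearest to FLOX (85.5% of FLOX, log2 fold change -0.23 with an SE of 0.06, adjusted p = 0.00940 by edgeR). Without CKO replicate 7 the call of Ppt1 was lost (edgeR adjusted p = 0.0504). The exons of Ppt1 overlap those of Cap1 on the opposite strand, a gene at 613 CPM, and because the strand setting of the counting is not given, its count is uncertain.

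All 4 luminal cofactors fell. Psap (ENSMUSG00000004207, chromosome 10, 60277627 to 60302597) encodes prosaposin, the precursor of the saposins that present sphingolipids to their hydrolases, and was the member with the highest level per kilobase in both groups. Its level was 15208, 11411, 11471 and 11680.5 CPM in CKO, against 23286, 21698, 20965 and 21062 CPM in FLOX. The groups did not overlap; CKO replicate 2 stood high above the other 3 CKO libraries, which were close together. Psap fell to 57.2% of FLOX (95% interval 48.5% to 67.5%; log2 fold change -0.81 with an SE of 0.10, adjusted p = 3.31e-05 by edgeR). Npc2, which hands cholesterol to the transporter NPC1, was at 1242, 1065, 1078 and 1045 CPM in CKO, against 1773, 1562, 1563 and 1456 CPM in FLOX. CKO lay below FLOX in every library, at 69.7% of its mean (log2 fold change -0.52 with an SE of 0.08, adjusted p = 0.000178 by edgeR). Gm2a, the activator protein of GM2 ganglioside degradation, fell by 0.30 on the log2 scale (edgeR adjusted p = 0.00345). Grn encodes progranulin, whose granulins support lysosomal enzymes, and fell by 0.28 (edgeR adjusted p = 0.0113). For Grn the highest CKO library (replicate 2, 2745 CPM) lay just below the lowest FLOX library (replicate 7, 2779.9 CPM).

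Of the membrane proteins 5 of 6 fell. Lamp1 (ENSMUSG00000031447, chromosome 8, 13159161 to 13175338), a heavily glycosylated protein that lines the inner face of the lysosomal membrane and whose promoter is shown above, was at 3142, 2685, 2741 and 2672 CPM in CKO, against 4369, 4109.6, 4033 and 4005 CPM in FLOX. The ranges were separate, with CKO replicate 2 and FLOX replicate 3 the highest of their groups. CKO stood at 68.0% of FLOX (95% interval 60.3% to 76.8%; log2 fold change -0.56 with an SE of 0.07, adjusted p = 5.12e-05 by edgeR). Its relative Lamp2, which also serves chaperone-mediated autophagy, fell by 0.21 on the log2 scale (edgeR adjusted p = 0.0140), and its call was lost without CKO replicate 6, 7 or 8 (adjusted p from 0.0572 to 0.0681). Cln3, a membrane protein mutated in juvenile neuronal ceroid lipofuscinosis, was at 83.6, 76.9, 76.3 and 75.7 CPM in CKO, against 103, 102, 98.9 and 96.7 CPM in FLOX. Its groups were separate (77.8% of FLOX, log2 fold change -0.36 with an SE of 0.06, adjusted p = 0.000262 by edgeR); Cln3 overlaps Apobr, a gene at 139 CPM on the opposite strand, so its count is uncertain. The calcium channel gene Mcoln1 fell by 0.36 and the cholesterol transporter gene Npc1 by 0.27 on the log2 scale. Scarb2, which encodes the lysosomal membrane protein LIMP-2, was at 124 ± 6.52 CPM in CKO, against 129 ± 6.68 CPM in FLOX and did not pass (log2 fold change -0.06, edgeR adjusted p = 0.477).

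Other genes of the organelle were read from lists of 96 further genes, of which 89 were tested, 50 fell and 6 rose, where 21.6% of all tested genes fell and 23.8% rose. Their median log2 fold change was -0.29. The genes of the MiT/TFE factors, which bind the CLEAR element, fell in 4 of 4 cases. Tfeb was at 52.6, 46.7, 46.8 and 45.8 CPM in CKO, against 94.1, 83.7, 84.5 and 78.9 CPM in FLOX (log2 fold change -0.83 with an SE of 0.07, adjusted p = 2.36e-06 by edgeR). Mitf fell by 0.53, Tfe3 by 0.32 and Tfec by 0.30 on the log2 scale. Among 24 further hydrolases 15 fell and 2 rose; the largest falls were those of the asparaginyl endopeptidase Lgmn (-0.79) and of Dnase2a (-0.61), which digests engulfed DNA. Of 28 further membrane proteins 21 fell and 3 rose, led by the tetraspanin Cd63 (-0.81) and the nucleoside transporter Slc29a3 (-0.70), whereas Cd164, chosen after its value was seen, rose by 0.61. Among factors of pump assembly and regulation 3 of 10 fell, a share near that of all tested genes, and 7 did not pass. The largest falls were those of Dmxl2 (-0.80) and Wdr7 (-0.47), which form the Rabconnectin complex. Both varied within FLOX, where Dmxl2 was at 20.2, 30.7, 20.4 and 32.8 CPM and Wdr7 at 129, 188, 140 and 185 CPM in replicates 3, 4, 6 and 7. Of the sorting machinery that brings hydrolases to lysosomes 4 of 13 genes fell, also near the share of all tested genes, and 9 did not pass; Sort1 (-0.35) and Gga2 (-0.34) had the largest falls. In the Ragulator and Rag group, which anchors mTORC1 to the lysosome, 3 of 9 fell, 1 rose and 5 did not pass; Rragd, at 35.8 ± 2.90 CPM in CKO against 78.7 ± 11.5 CPM in FLOX, fell by 1.14 on the log2 scale (adjusted p = 3.33e-06 by edgeR) and Rragb rose by 0.54. Of the 9 other pump subunit genes, mostly isoforms of other tissues, only Atp6v0a2 and Atp6v1g2 were tested, and neither passed.

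**Figure D4:**
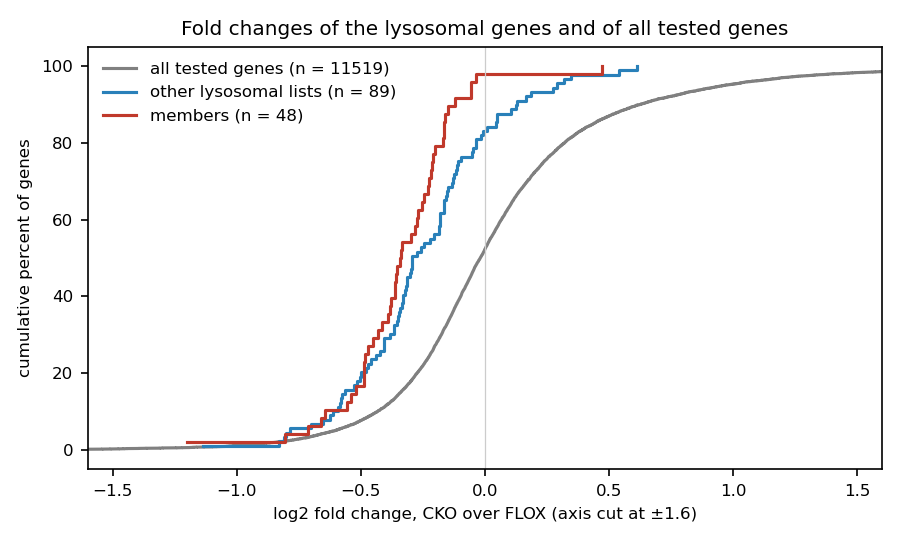
Cumulative percent of genes by log2 fold change (CKO over FLOX) for the 48 tested members, the 89 tested genes of the other lysosomal lists and all 11519 tested genes. The member curve reaches nearly its full height left of 0, with Arsb as its last step on the right, while the curve of all genes crosses 0 near its middle (medians -0.34, -0.29 and -0.02).

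Markers of the cells were read beside these values. The 8 macrophage markers summed to 6899.7 to 7434 CPM in CKO, against 7649 to 8065 CPM in FLOX; Csf1r, Cd68 and Mertk fell, Fcgr1 rose, and the other 4, Adgre1 among them (log2 fold change 0.00), did not pass. Cd68 is itself a lysosomal membrane protein and stands in both lists. Osteoclasts, to which macrophages can give rise, use Atp6v0d2 and Tcirg1 for bone resorption. Of 8 osteoclast markers 5 were tested and 3 fell, where 21.6% of all tested genes fell. These were Ctsk (-1.30), Acp5 (-0.51) and Nfatc1 (-0.21; log2 fold changes), and Acp5 also stands in the list of further hydrolases. The markers summed to 89.9 to 104 CPM in CKO, against 114 to 133 CPM in FLOX. Most of that was Nfatc1, with means of 60.8 and 70.2 CPM. The calcitonin receptor gene Calcr had 0 counts in every library and Dcstamp did not pass (log2 fold change -0.06). The 8 monocyte markers in the files summed to 1058 to 1201 CPM in CKO, against 1451 to 1825 CPM in FLOX, with 3 of 6 tested genes lower and 3 higher, and the 8 neutrophil markers to 121 to 151 and 218 to 315 CPM, with Csf3r lower and 3 genes higher. Most of the neutrophil sum was Csf3r, at 129 ± 12.0 CPM in CKO, against 268 ± 40.3 CPM in FLOX (SD, n = 4 each). The 3 neutrophil genes that rose were Ltf (1.75), S100a9 (1.55) and Cxcr2 (1.11; log2 fold changes), all low, with S100a9 the highest at 4.36 CPM in CKO replicate 2. Elane had 0 counts and Mpo no more than 8. The highest sum in any library was 0.395 CPM for lymphocyte markers, 0.678 for islet markers, 1.42 for mast cell and basophil markers, 3.39 for dendritic cell markers and 15.04 for stromal and endothelial markers. The part of the macrophage, monocyte, neutrophil and osteoclast values in the lysosomal differences was not tested.

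Single libraries stood out among the members. For 31 of the 38 members that fell (81.6%), the CKO library closest to FLOX was replicate 2, against 63.6% of all genes that fell. FLOX replicate 3 was the highest library for 25 of the 38 (65.8%, against 42.6%), and FLOX replicate 7 the lowest FLOX library for 20 (52.6%, against 30.1%). Leaving out CKO replicate 2 gave 40 members lower, leaving out FLOX replicate 7 gave 42, and leaving out both gave 42. In these fits 19.5%, 21.4% and 19.7% of all tested genes were lower, against 21.6% with all libraries. The median CV of the members within a group was 5.04% in FLOX and 5.93% in CKO.

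Within FLOX the members also differed with transcript length, though not without exceptions. In 20 members FLOX replicates 3 and 6 were both above replicates 4 and 7, and these had a median merged exon length of 3019.5 bp; the same order held for 34.0% of all tested genes. In 10 members the order was the opposite, as in Atp6v1a, Atp6v0a1, Galc, Npc1 and Ids, and their median length was 6300.0 bp; 29.2% of all tested genes had that order. Across the 48 members Spearman's rho between length and the log2 ratio of FLOX 4 and 7 over FLOX 3 and 6 was 0.573, and across 11087 tested genes with a length it was 0.541; genes share their libraries and are not independent replicates. Without FLOX replicates 4 and 7 the number of members called lower was 43, where 24.2% of all tested genes were lower. Without FLOX replicates 3 and 6 it was 38, where 25.8% were lower. Both shares are above the 21.6% of the fit with all libraries. The part of this split in the comparison with CKO was not tested further.

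**Figure D5:**
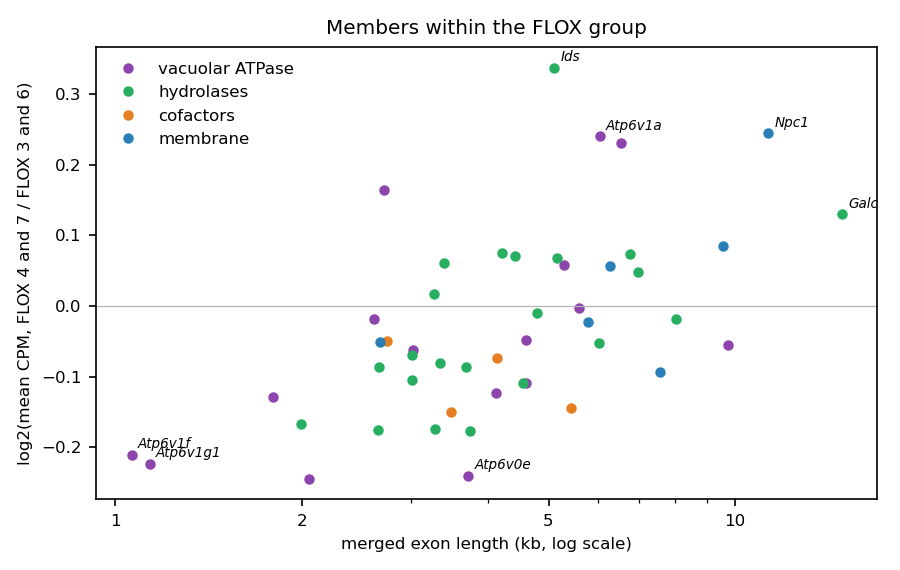
Merged exon length in kb (log scale) against log2 of the mean CPM of FLOX replicates 4 and 7 over that of FLOX replicates 3 and 6, 1 point per tested member, coloured by class. The short genes Atp6v1f and Atp6v1g1 lie below 0 and the long genes Galc and Npc1 above it, with exceptions such as the long Atp6v1h (-0.05) and the shorter Atp6v0d2 (0.16; Spearman's rho 0.573, n = 48).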

How the data were processed

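Libraries of 8 BMDM cultures (4 CKO, 4 FLOX) were read in pairs. The submitters' processing notes name HISAT2 2.0.5 as aligner, mm10 as genome and HTSeq as counter; for HTSeq the version, annotation and strand setting were not given in the sources used here. The authors deposited raw counts (whole read pairs per gene symbol, no normalisation), 1 file per library. A deposited table of the whole series held identical values in 24426 of 24426 lines, with 27 names that differ, and 0 of its columns had no sample. Unassigned pairs (5 HTSeq classes, 28.3% to 33.7% of pairs) stayed out of library sizes and tests.

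The software was R 4.3.3 and edgeR 4.0.16. Genes passed filterByExpr with a minimum count of 10 and a minimum total of 15. After TMM scaling, the quasi-likelihood F test compared CKO with FLOX without covariates (6 residual degrees of freedom before moderation). The Benjamini-Hochberg adjustment covered all 11519 genes, with calls at 0.05. The biological coefficient of variation was 8.77%. The SE of a log2 fold change was derived from F, and the 95% intervals from that SE. CPM and isoform ratios (log2 CPM, prior count 0.5) rest on TMM-scaled library sizes. The script was tested on simulated data. Positions and merged exon lengths are those of GENCODE M21 on GRCm38, which held all 49 members.

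The members and all gene lists were chosen with earlier results of these data known. Values in every library are given for the 2 largest changes of each class among called members, for members called against the main direction or by 1.5-fold, and for the isoform pairs; from other lists the 2 largest called changes are named, with the MiT/TFE genes. Genes outside this rule (Cd164, Atp6v0a2, Atp6v0a4, Atp6v1g2 and the markers named) were chosen after their values were seen or to complete a set of isoforms. Exons of 14 members overlap another gene, 10 of them one in the files, and such counts are uncertain without strand. Libraries of a group differed by more than sampling noise in every pair (chi-square 2.45 to 27.8 times its degrees of freedom). The alternatives tried were other scaling (RLE, upper quartile), other filters (none, or 1 CPM in 4 libraries), other tests (DESeq2 1.42.0; voom of limma 3.58.1), a prior count of 2, omission of single libraries, a block for the replicate number, and omission of the 20 most abundant genes.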

Additional observations from a re-analysis of the deposited data

Results flagged for a closer look

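Among the CPM values of the 48 tested members in each group, 96 groups of 4 libraries in all, 15 held a library whose distance to its neighbour was a larger share of the group's range than Dixon's 95% critical value for 4 values; chance alone is expected to give 4.8, or about 1 in 20 groups. Of the 15, 12 were CKO replicate 2, in each case as the highest library of its group and below the FLOX libraries. They were Atp6ap1 at 499 CPM, Gaa at 110.4, Man2b1 at 792, Fuca1 at 174, Hexa at 1038, Pla2g15 at 217, Psap at 15208, Gm2a at 335, Npc2 at 1242, Lamp1 at 3142, Lamp2 at 953 and Cln3 at 83.6 CPM. Each of these genes shares its library with the others, so the 12 are not separate events. CKO replicate 7 stood above its group for Atp6v0a1 (756 CPM). FLOX replicate 3 stood above its group for Glb1 (189 CPM) and Gm2a (393 CPM).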

How the results depend on the processing

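The number of members called lower was 38 and ranged from 32 to 42 when 1 library was left out, from 34 to 40 under the other scalings, filters, tests and the removal of the 20 most abundant genes, and Arsb was called higher under each of them. The share of all tested genes called lower was 21.6% and ranged from 15.4% to 21.5% with 1 library left out. For DESeq2 it was 9.88% of all gene symbols. It ran from 15% to 22.2% under the other scalings and filters, voom and the removal of the 20 most abundant genes. With those 20 genes removed, 2 cofactors were called lower instead of 4, because Psap and Grn are among the genes removed. Genes called over the whole table ranged from 4273 to 5210 with 1 library left out. No scaling moved the median of all genes by more than 0.1 on the log2 scale. The sign turned positive only in members that did not pass. With 1 library left out the Ids log2 fold change ran from -0.10 (without FLOX replicate 3) to 0.04 (without FLOX replicate 7; 0.0053 without CKO replicate 6), the Idua log2 fold change from -0.0816 (without FLOX replicate 3) to 0.0054 (without CKO replicate 7) and the Scarb2 log2 fold change from -0.0750 (without CKO replicate 8) to -0.017 (without CKO replicate 7). Without FLOX replicates 4 and 7 that of Ids was 0.14, and without CKO replicate 2 and FLOX replicate 7 it was 0.058 for Ids and 0.0054 for Scarb2. Without FLOX replicates 3 and 6, in contrast, Ids was called lower (log2 fold change -0.20, edgeR adjusted p = 0.0116). The cause was not tested. Glb1 lost its call also with upper-quartile factors and without the 20 most abundant genes. The pairs of libraries left out together were chosen after seeing the data. The log2 ratio of Atp6v0d2 to Atp6v0d1 differed by -0.79 to -0.66 and that of Tcirg1 to Atp6v0a1 by 0.14 to 0.24 with 1 library left out.

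Only the replicate numbers 6 and 7 occur in both groups. The deviations of libraries with the same number from their group means correlated at 0.163 and -0.0881. Libraries with different numbers correlated at -0.347 to 0.278, so these values cannot tell whether the numbers pair the libraries. With the replicate number as a block 3503 genes were called and 30 members were lower, all 30 also lower without it. In that fit 13.2% of all tested genes were lower. The ratio differences were -0.75 and 0.18. In the fit of the genes, a number that occurs only in CKO or only in FLOX takes up its own library. The genotype difference then rests on replicates 6 and 7 of each group, so this fit does not check all 8 libraries. The lowest count of a tested member in any library was 446, whereas Atp6v0c, with at most 3 counts, could not be tested.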
